A study of Mus musculus with 24 samples.

Results

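Transcripts of 7 genes of cholesterol synthesis and its control were counted in RNA-seq libraries of whole kidney from 24 mice aged 18 days, 1 library a mouse (strain C57BL/6 by the labels, a C57BL/6 J background by the methods). The 7 genes were chosen by symbol from the 54532 rows of the count table: the enzymes Hmgcs1, Idi1, Fdft1, Sqle and Lss, and the regulators Srebf2 and Insig1. All 7 passed the filter on low values. Pkd1 encodes polycystin-1, and all 24 mice had on 1 chromosome its RC allele, which carries a missense change. In RC/+ mice (labelled control) the other allele was a floxed copy left intact for want of Cre, and in RC/- mice (labelled cystic) it was inactivated by Ksp-Cre, which is expressed in kidney tubules, so that Cre and the cystic genotype cannot be told apart. In the D18 line, from founder 3, and the D53 line, from founder 2, CRISPR editing had removed the miR-17 binding motif of the 3′ UTR from the RC allele, and each line goes back to 1 founder. The RC/+ and RC/- mice without the edit are called the unedited line here, and no founder is given for them. The paper describes a breeding in which 1 pair could yield edited and unedited genotypes alike, so this name does not mean a separate stock. There were 3 mice each in RC/+, RC/+ D18 and RC/+ D53, and 5 each in RC/-, RC/- D18 and RC/- D53. The comparisons address how these transcripts differed between RC/- and RC/+ kidneys, and between RC/- kidneys with and without the motif on the RC allele. Cystic is used here as a name for the RC/- genotype. In edited RC/- mice of this age, the paper reports that cystic disease was almost fully relieved.

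Cells make cholesterol from acetyl-CoA through mevalonate, isoprenoid units, squalene and lanosterol. When sterols run low in the endoplasmic reticulum, the membrane-bound factor SREBP-2, encoded by Srebf2, is carried to the Golgi by SCAP and cut, and its released part switches on the genes of nearly every step of the pathway together with genes of lipoprotein uptake. INSIG proteins, among them the product of Insig1, hold SCAP back when sterols are plentiful, and Insig1 is itself a target of SREBP-2. None of the 7 genes encodes a lipoprotein receptor, so uptake enters here through its regulators and through a separate list of uptake genes. Epithelial cells of the kidney tubule both make cholesterol and take it up from lipoproteins. The cytosolic HMG-CoA synthase encoded by Hmgcs1 is distinct from the mitochondrial enzyme of ketone synthesis.

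The promoters of 5 of the 7 genes were found in RefSeq (build GRCm38.p6), and those of Sqle and Fdft1 were not used here. Each window held 250 bases before and 50 bases after the start site. The windows of Hmgcs1 and Insig1 are printed because Hmgcs1 had the largest change of the 7 in RC/- against RC/+ and Insig1, also a target of SREBP-2, passed the test in none of the comparisons. Capitals mark the sterol regulatory element TCACNCCAC, the nuclear factor Y box CCAAT and the Sp1 box GGGCGG on either strand, and none of the marked motifs overlaps another. The Hmgcs1 window is chr13:119690101-119690400 on the plus strand, and that of Insig1 is chr5:28071162-28071461 on the plus strand.
Hmgcs1: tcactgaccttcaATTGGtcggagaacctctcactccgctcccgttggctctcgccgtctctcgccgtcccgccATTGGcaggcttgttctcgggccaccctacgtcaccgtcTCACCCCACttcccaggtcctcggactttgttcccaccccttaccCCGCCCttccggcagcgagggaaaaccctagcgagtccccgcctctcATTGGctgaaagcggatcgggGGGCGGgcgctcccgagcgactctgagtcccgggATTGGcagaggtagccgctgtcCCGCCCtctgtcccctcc
Insig1: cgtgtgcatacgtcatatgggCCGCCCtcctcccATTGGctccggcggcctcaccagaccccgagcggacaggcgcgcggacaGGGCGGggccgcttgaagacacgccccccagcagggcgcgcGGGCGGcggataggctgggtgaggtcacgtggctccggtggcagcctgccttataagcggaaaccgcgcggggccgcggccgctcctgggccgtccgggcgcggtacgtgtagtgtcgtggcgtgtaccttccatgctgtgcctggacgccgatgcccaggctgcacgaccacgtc
The sterol regulatory element was found in 1 of the 5 windows, that of Hmgcs1, where TCACCCCAC begins 137 bases before the start site at chr13:119690214-119690222, and in 408 of all 32851 promoter windows of the table (1.24%). CCAAT was found in 5 of the 5 windows and in 37.4% of all windows, and GGGCGG in 5 of the 5 and in 35.7% of all windows. These are letter matches only, and the absence of a match says nothing of what binds there.

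Total counts ranged from 20.4 to 30.8 M per library, and the 7 genes held between 134 and 11834 counts in a library. RC/- replicate 16 stood apart: 15 of 16 fixed adrenal markers were higher in it than in any of the other 23 libraries, among them Cyp11a1, which starts steroid synthesis, with 7579 counts against at most 30, and Th, which makes catecholamine precursors in the medulla, with 946 against at most 22. The 10 cortex markers summed to 2125 CPM (counts scaled by the library total) in that library and to 9.04 to 23.6 CPM in the others, and Cyp11b2, the aldosterone synthase, was at 0 in 15 of the other 23 libraries. The values of the 7 genes and the list counts that use the RC/- group are therefore given with and without replicate 16, and those of other named genes where a call is lost without it. The 6 skeletal muscle markers summed to 147 to 194 CPM in libraries 20 to 27, which are 3 of the RC/- D18 and all of the RC/- D53 libraries, and to 5.27 to 9.36 CPM in the other 16. No RC/- library is among libraries 20 to 27, so in RC/- D53 against RC/- that block and the edit cannot be told apart. Pkd1 itself, counted over the whole gene so that its alleles are not separated, had group means between 50.7 CPM (RC/+) and 61.7 CPM (RC/+ D18), with 59 CPM in RC/-, and did not pass the test in RC/- against RC/+ (log2 fold change 0.21, adjusted p = 0.173, limma). Nor did Pkd1 pass in RC/- D18 against RC/- (0.045, adjusted p = 0.766, limma) or RC/- D53 against RC/- (-0.11, adjusted p = 0.462, limma). The paper reports greater use of the RC allele in edited RC/- kidneys from RNA-seq, a measure not made here.

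Hmgcs1 was by far the most abundant of the 7 transcripts. Per kilobase of exon, the mean over the 24 libraries was 77.1 CPM for Hmgcs1, 15.4 for Srebf2, 9.47 for Fdft1, 8.67 for Insig1, 6.81 for Sqle, 3.41 for Idi1 and 1.91 for Lss. The order of Fdft1, Insig1 and Sqle is not firm: group means per kilobase ran from 8.62 to 10.1 CPM for Fdft1, from 7.79 to 10.5 CPM for Insig1 and from 5.53 to 8.25 CPM for Sqle, which stood above Insig1 in RC/- (8.14 CPM). For 4 of the genes some reads may be shared with or lost to other loci. Fdft1 (chr14:63145150-63179578, minus strand) shares 18.3% of its exon bases with Ctsb on the opposite strand, and which strand was counted is not given in the sources used here. It also has a copy, Gm6781, with 97.4% identity over 1249 bases. Hmgcs1 (chr13:119690379-119708260, plus strand) shares 12.1% of its exon bases with Gm48342 on the opposite strand. Idi1 (chr13:8885501-8892451, plus strand) has the copies Gm13502, identical over 684 bases, and Gm35570, and shares 9.22% of its exon bases with Gm48574. Lss (chr10:76531588-76557138, plus strand) shares 3.53%. Sqle (chr15:59315077-59331192), Srebf2 (chr15:82147181-82205379) and Insig1 (chr5:28071363-28078662), all on the plus strand, share no exon bases, and all coordinates are those of GRCm38.

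**Figure D1:**
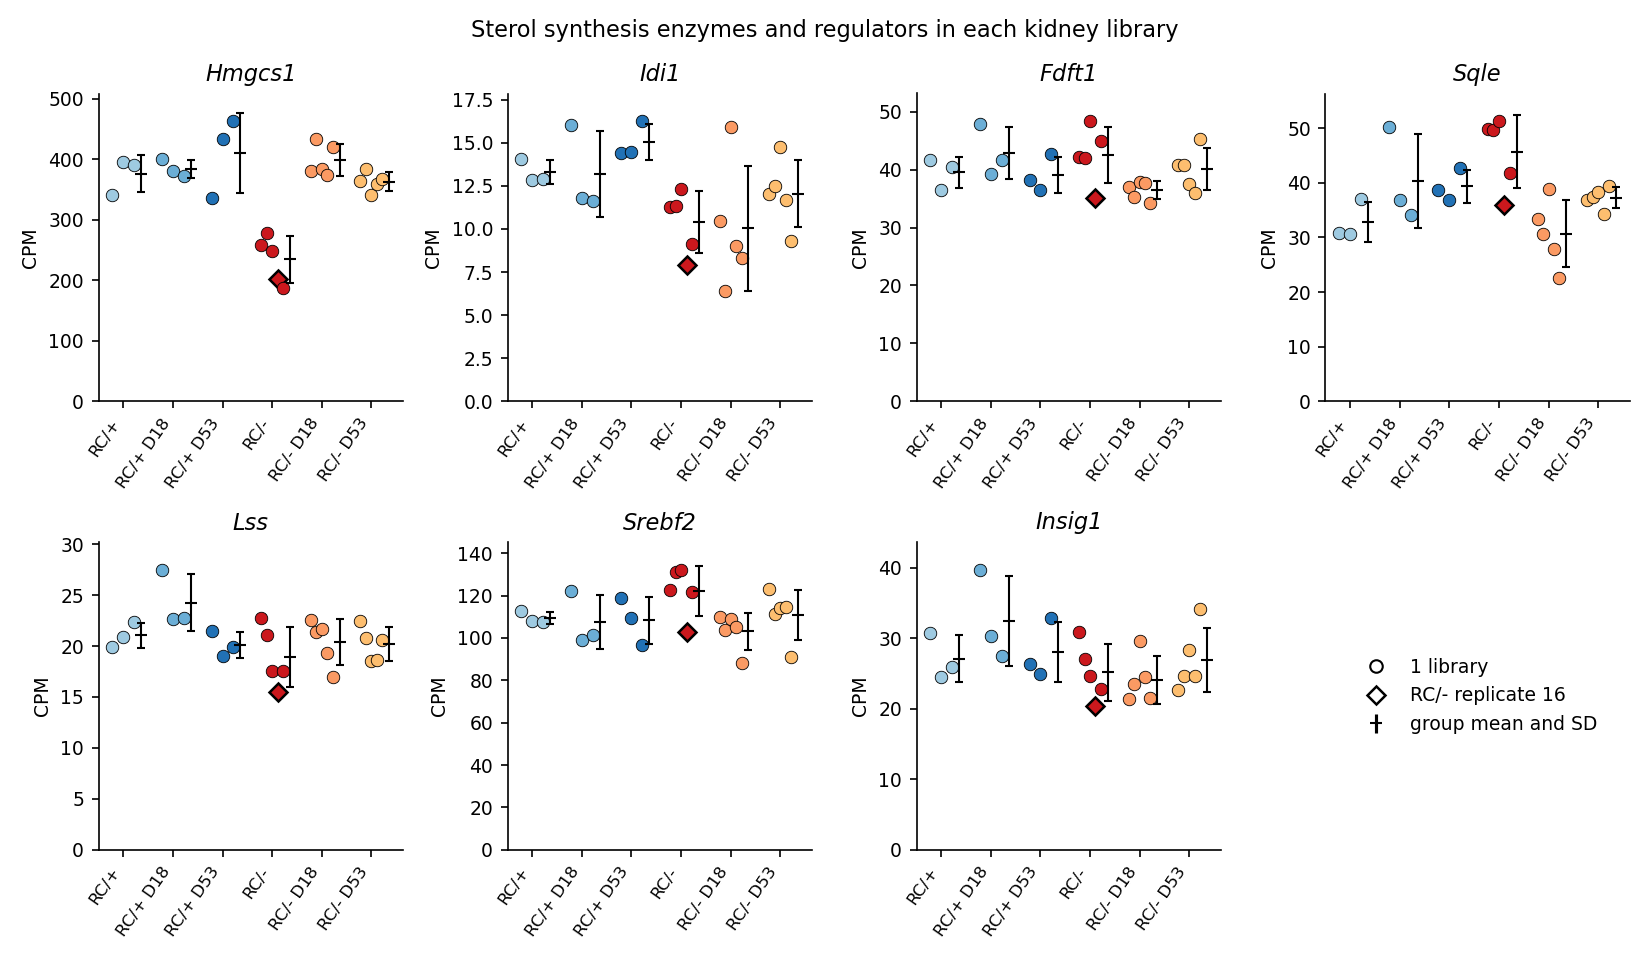
CPM of each of the 7 genes (vertical axes, from 0) in the 24 libraries, in 6 groups (horizontal axes); circles are libraries, the diamond is RC/- replicate 16, and the bars give the group mean and SD. Hmgcs1 in all 5 RC/- libraries lay below all 19 others, and replicate 16 was the lowest RC/- library for 6 of the 7 genes.

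In RC/- kidneys, Hmgcs1 fell and Sqle rose, while the other 5 genes did not pass the test. HMG-CoA synthase, the product of Hmgcs1, joins acetyl-CoA to acetoacetyl-CoA. Hmgcs1 was at 341, 396 and 391 CPM in the RC/+ libraries (376 ± 30.4, SD, n = 3), and at 258, 279, 248, 203 and 187 CPM in RC/- replicates 13 to 17 (235 ± 38.6, SD, n = 5). The groups did not overlap, and the highest RC/- library lay below the lowest RC/+ library. The log2 fold change was -0.69 (95% CI -0.91 to -0.47, adjusted p = 1.64e-05), or 0.619 of the RC/+ level, and -0.64 without replicate 16 (CI -0.87 to -0.42, adjusted p = 6.15e-05). All adjusted p values here are Benjamini-Hochberg values over every gene tested, from limma on log2 CPM unless another tool is named.

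Squalene epoxidase, encoded by Sqle, makes the first oxygenated sterol precursor. Sqle stood at 30.8, 30.6 and 37.1 CPM in RC/+ (32.8 ± 3.72, SD, n = 3), and at 49.9, 49.8, 51.2, 35.9 and 41.8 CPM in RC/- replicates 13 to 17 (45.7 ± 6.62, SD, n = 5). Only replicate 16 fell within the RC/+ range, and the other 4 RC/- libraries lay above it. The log2 fold change was 0.47 (CI 0.17 to 0.76, adjusted p = 0.0113), and 0.55 without replicate 16 (CI 0.26 to 0.84, adjusted p = 0.00323). This call depended on how libraries were scaled: with TMM factors the change was 0.33 (adjusted p = 0.0776), and 0.42 with TMM factors and without replicate 16 (adjusted p = 0.0234). It was also lost without RC/+ replicate 4 (0.43, adjusted p = 0.0528) or without RC/+ replicate 5 (0.42, adjusted p = 0.0573).

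The 2 of 7 genes called compare with a background of 37.6% of the 22570 genes tested, of which 25.5% were higher and 12.2% lower in RC/-. Without replicate 16 the background was 35.6%, and the same 2 genes were called. For 2 of the 7 genes, Hmgcs1 and Idi1, the libraries of the groups did not overlap, against 37.6% of all genes. The median log2 fold change of the 7 genes was -0.11 (-0.04 without replicate 16) and that of all genes 0.14 (also without it). With TMM factors 7740 of the 22570 genes were called. TMM factors moved the median of all genes to 0.012, and the share of calls that were higher in RC/- from 67.7% to 49.7%. On that scale Hmgcs1 was at -0.83 (adjusted p = 3.58e-06) and Lss, which closes the sterol ring as lanosterol synthase, was called lower (-0.31, adjusted p = 0.0373, but -0.24 and 0.11 without replicate 16), so that 2 genes were called on either scale but Sqle was replaced by Lss.

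Of the genes that did not pass, Idi1, the isomerase that balances the 5-carbon isoprenoid units, came nearest in size. Idi1 ran from 12.9 to 14.1 CPM in RC/+ and from 7.93 to 12.3 CPM in RC/-, with no overlap (log2 fold change -0.37, CI -0.78 to 0.04, adjusted p = 0.157). Without replicate 16 the change was -0.28 (adjusted p = 0.315). Lss ran from 19.9 to 22.4 CPM in RC/+ and from 15.5 to 22.75 CPM in RC/- (-0.17, CI -0.40 to 0.07, adjusted p = 0.268, and -0.10 without replicate 16, adjusted p = 0.529). Fdft1, squalene synthase, was at 36.6 to 41.7 CPM in RC/+ and 35.1 to 48.3 CPM in RC/- (0.10, CI -0.09 to 0.29, adjusted p = 0.44, and 0.17 without replicate 16, adjusted p = 0.146). Srebf2 was at 107.7 to 112.6 CPM in RC/+ and at 102.6 to 132.1 CPM in RC/-, where replicate 16 was the only library below the RC/+ range (0.15, CI -0.05 to 0.36, adjusted p = 0.243, and 0.21 without it, adjusted p = 0.0882). Insig1 was at 24.5 to 30.8 CPM in RC/+ and 20.4 to 30.9 CPM in RC/- (-0.11, CI -0.42 to 0.19, adjusted p = 0.596, and -0.04 without replicate 16, adjusted p = 0.866). The upper ends of the intervals of Fdft1 and Srebf2 were 0.29 and 0.36, and 0.35 and 0.41 without replicate 16.

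Replicate 16 pulled the RC/- values of these genes down. It was the lowest of the 5 RC/- libraries for 6 of the 7 genes and the second lowest for Hmgcs1, where replicate 17 was lower. Its distance below the mean of the other 4 libraries was 4.46 of their SDs for Srebf2, 3.18 for Fdft1, 2.85 for Sqle and 1.01 for Hmgcs1. Without it, the RC/- libraries of Sqle, Fdft1 and Srebf2 all lay above the RC/+ range, so that 5 of the 7 genes did not overlap, against 41.1% of all genes. Its adrenal transcripts moved with these lower values, and their part in them was not tested.

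**Figure D2:**
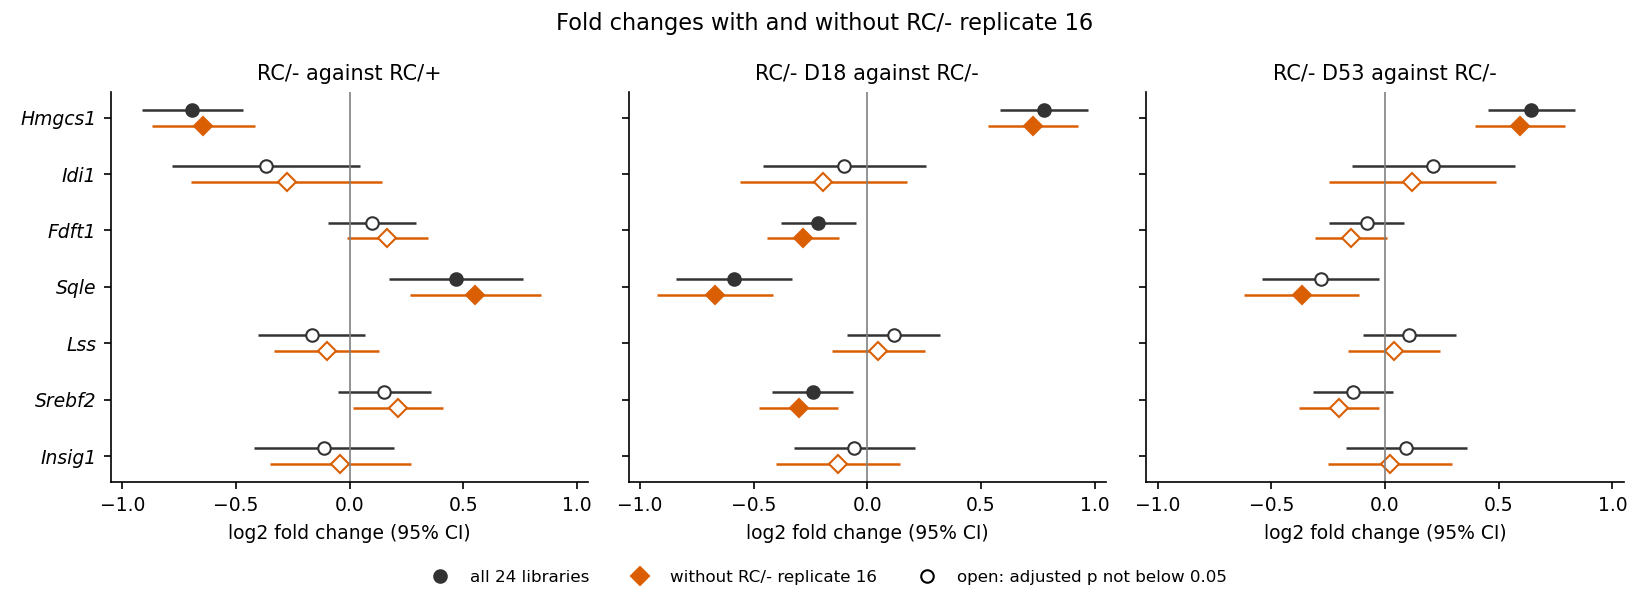
Log2 fold change with its 95% confidence interval (horizontal axes) for the 7 genes (vertical axis) in RC/- against RC/+, RC/- D18 against RC/- and RC/- D53 against RC/-, from all 24 libraries (black circles) and without RC/- replicate 16 (orange diamonds); filled symbols have an adjusted p below 0.05. Hmgcs1 was called in all 3 comparisons with and without that library, and Sqle in RC/- D53 against RC/- only without it.

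In RC/- D18 kidneys, Hmgcs1 was higher and Sqle, Fdft1 and Srebf2 were lower than in RC/- kidneys. Hmgcs1 was at 382, 434, 385, 374 and 421 CPM in RC/- D18 replicates 18 to 22 (399 ± 26.6, SD, n = 5), all above every RC/- library. The log2 fold change was 0.78 (CI 0.59 to 0.97, adjusted p = 3.88e-07), or 1.71-fold, and 0.73 without replicate 16 (CI 0.53 to 0.93, adjusted p = 2.19e-06). Sqle was at 33.3, 30.7, 38.9, 27.9 and 22.5 CPM in the same libraries (30.7 ± 6.11, SD, n = 5), and replicate 20 alone lay above RC/- replicate 16. The change was -0.59 (CI -0.84 to -0.33, adjusted p = 0.000468), and -0.67 without replicate 16 (CI -0.92 to -0.42, adjusted p = 0.000136), when the groups no longer overlapped.

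Fdft1 and Srebf2 differed by much less. Fdft1 was at 37, 35.3, 37.9, 37.7 and 34.3 CPM in RC/- D18 replicates 18 to 22, and at 42.2, 42.1, 48.3, 35.1 and 44.9 CPM in RC/- replicates 13 to 17. Replicate 16 was again the only RC/- library within the RC/- D18 range. The change was -0.22 (CI -0.38 to -0.05, adjusted p = 0.0344), and -0.28 without replicate 16 (adjusted p = 0.00484). Srebf2 was at 110, 103.6, 108.8, 105.2 and 88.3 CPM in RC/- D18, and at 122.7, 131, 132.1, 102.6 and 121.7 CPM in RC/-, with the same single library in the way. Its change was -0.24 (CI -0.42 to -0.06, adjusted p = 0.027), and -0.30 without replicate 16 (adjusted p = 0.0064). Neither call held with TMM factors (-0.10, adjusted p = 0.38 for Fdft1, and -0.12, adjusted p = 0.286 for Srebf2), nor with TMM factors and without replicate 16 (adjusted p = 0.121 for Fdft1 and 0.12 for Srebf2). The call of Fdft1 was lost without any 1 of RC/- replicates 13, 15 and 17 and RC/- D18 replicates 19 and 22 (adjusted p at most 0.113), and that of Srebf2 without any 1 of RC/- replicates 14 and 15 and RC/- D18 replicate 22 (adjusted p at most 0.0961).

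These 4 of 7 genes stand beside 41.2% of all genes called in RC/- D18 against RC/-, 14.3% higher and 26.9% lower, and beside 38.2% without replicate 16, when 4 of 7 were again called. The libraries did not overlap for 1 of the 7 genes, Hmgcs1, against 27.8% of all genes, and for 4 of the 7 without replicate 16, against 30.1%. Lss (log2 fold change 0.12, CI -0.09 to 0.32), Idi1 (-0.10, CI -0.46 to 0.26) and Insig1 (-0.06, CI -0.32 to 0.21) did not pass, with adjusted p of 0.376, 0.684 and 0.756. Without replicate 16 they were at 0.05, -0.19 and -0.13, with adjusted p of 0.738, 0.431 and 0.479. Idi1 was the most variable gene within a group, from 6.42 to 15.9 CPM in RC/- D18. The median change was -0.10 both for the 7 genes and for all genes, but -0.19 and -0.11 without replicate 16, and TMM factors moved that of all genes to 0.0044 and the share of calls higher in RC/- D18 from 34.8% to 50.2%. With TMM factors 2 of the 7 were called, Hmgcs1 (0.90, adjusted p = 1.47e-07) and Sqle (-0.47, adjusted p = 0.00368), beside 8843 of the 22570 genes tested.

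In RC/- D53 kidneys, Hmgcs1 was higher than in RC/- kidneys and was the one gene of the 7 that was called. Hmgcs1 was at 364, 384, 340.4, 359 and 368 CPM in RC/- D53 replicates 23 to 27 (363 ± 15.8, SD, n = 5), all above every RC/- library. The log2 fold change was 0.64 (CI 0.45 to 0.84, adjusted p = 1.11e-05), or 1.56-fold, and 0.59 without replicate 16 (CI 0.40 to 0.79, adjusted p = 5.96e-05). Sqle was at 36.8, 37.4, 38.3, 34.4 and 39.5 CPM in RC/- D53 (37.3 ± 1.91, SD, n = 5), the tightest spread of any RC/- group for that gene. Its change was -0.28 (CI -0.54 to -0.03, adjusted p = 0.0881). Without replicate 16 it was -0.37 (CI -0.62 to -0.11, adjusted p = 0.0286) and all RC/- D53 libraries lay below the remaining RC/- libraries, but with TMM factors as well it was -0.27 (adjusted p = 0.11).

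The count of 1 of 7 genes, and of 2 of 7 without replicate 16, stands beside 30.2% of all genes called, 11.3% higher and 18.9% lower, and 26.9% without that library. The libraries did not overlap for Hmgcs1 alone among the 7, against 18.8% of all genes, and for 2 of the 7 without replicate 16, against 21.1%. Idi1 (0.21, adjusted p = 0.397), Lss (0.11, adjusted p = 0.462), Insig1 (0.09, adjusted p = 0.642), Fdft1 (-0.08, adjusted p = 0.497) and Srebf2 (-0.14, adjusted p = 0.236) did not pass. Without replicate 16 they were at 0.12, 0.04, 0.02, -0.15 and -0.20, with adjusted p of 0.0813 (Srebf2) to 0.927 (Insig1). The median of the 7 genes was 0.09 and that of all genes -0.08, against 0.02 and -0.09 without replicate 16, and TMM factors moved that of all genes to 3.1e-05 and the share of calls higher in RC/- D53 from 37.4% to 53.2%. The comparisons of RC/- with RC/+, of RC/- D18 with RC/- and of RC/- D53 with RC/- all use the same 5 RC/- libraries, so opposite signs between them are not independent.

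Within the edited lines, which share no library with the RC/- or RC/+ groups, none of the 7 genes passed the test between cystic and control genotypes. The mean of Hmgcs1 was 399 CPM in RC/- D18 beside 385 CPM in RC/+ D18 (SD 15, n = 3). In the D53 line it was 363 CPM in RC/- D53 and 411 CPM in RC/+ D53 kidneys (SD 66.2, n = 3). The control libraries of D53 lay wide apart, at 336.5, 434.5 and 462.7 CPM, and all 5 RC/- D53 libraries fell within their range. Between RC/- D18 and RC/+ D18, 5 of the 7 genes had an unadjusted p below 0.05 in limma, all lower in RC/- D18: Insig1 (log2 fold change -0.42), Idi1 (-0.44), Sqle (-0.40), Lss (-0.25) and Fdft1 (-0.23), with adjusted p of 0.326, 0.512, 0.333, 0.513 and 0.437. An unadjusted p below 0.05 was reached by 8.91% of all genes, and by 2.17% in the direction of lower values in RC/- D18. These 5 genes shared a high control library, RC/+ D18 replicate 7, the highest of its group for each. With 1 library left out, their weakest changes were -0.268, -0.292, -0.232, -0.159 and -0.149 in the same order (adjusted p at most 0.881). They also varied together within groups, so they are not separate findings. Only 0.266% of all genes were called in that comparison, and 2.60% in RC/- D53 against RC/+ D53, where none of the 7 had an unadjusted p below 0.05. In the edgeR and DESeq2 tests too, 0 of 7 were called in either.

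The difference between these cystic differences was tested directly. Relative to the unedited line, the RC/- against RC/+ difference of Hmgcs1 was higher by 0.74 in D18 (CI 0.43 to 1.06, adjusted p = 0.00146) and by 0.52 in D53 (CI 0.21 to 0.84, adjusted p = 0.0266), and that of Sqle was lower by 0.87 in D18 (CI -1.29 to -0.45, adjusted p = 0.00405). Without replicate 16 the values were 0.69 (adjusted p = 0.00281) and 0.48 (adjusted p = 0.0476) for Hmgcs1 and -0.95 (adjusted p = 0.00152) for Sqle. Also without it, Sqle was called in D53 (-0.63, adjusted p = 0.0401, against -0.55 and 0.0813 with it, though -0.55 and 0.0248 in a fit on its own groups) and Fdft1 in D18 (-0.40, adjusted p = 0.0259, against -0.33 and 0.0885 with it). With TMM factors and without replicate 16 neither was called (-0.52, adjusted p = 0.0908, and -0.29, adjusted p = 0.131). The background was 17.1% of all genes for D18 and 11.3% for D53. The D53 value of Hmgcs1 was no longer called without RC/+ replicate 5 (0.48, adjusted p = 0.0794), RC/+ replicate 6 (0.50, adjusted p = 0.0657) or RC/+ D53 replicate 10 (0.39, adjusted p = 0.11). It also lost the call with libraries 20 to 27 as a covariate (0.58, adjusted p = 0.154) and in a fit on its own groups (0.52, adjusted p = 0.0507).

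In the control genotype, none of the 7 genes was called between an edited and the unedited line. RC/+ D18 against RC/+ gave 1 gene called of all those tested (0.00443%) and RC/+ D53 against RC/+ gave 0 (0%), with 1013 and 525 genes at an unadjusted p below 0.05, none of them one of the 7. Sqle was at 50.2, 36.8 and 34.1 CPM in RC/+ D18 and at 38.65, 36.8 and 42.7 CPM in RC/+ D53, ranges that overlap those of RC/+. RC/+ D18 replicate 7 was the highest of the 3 libraries of its group for all 7 genes. The libraries did not overlap for 1 of the 7 genes in each, Lss in D18, against 9.95% of all genes, and Idi1 in D53, against 8.84%. Between the RC/- groups of the edited lines, RC/- D53 against RC/- D18, 0 of 7 and 0.266% of all genes were called. Sqle there had a log2 fold change of 0.30 (unadjusted p = 0.0224, adjusted p = 0.297, limma).

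**Figure D3:**
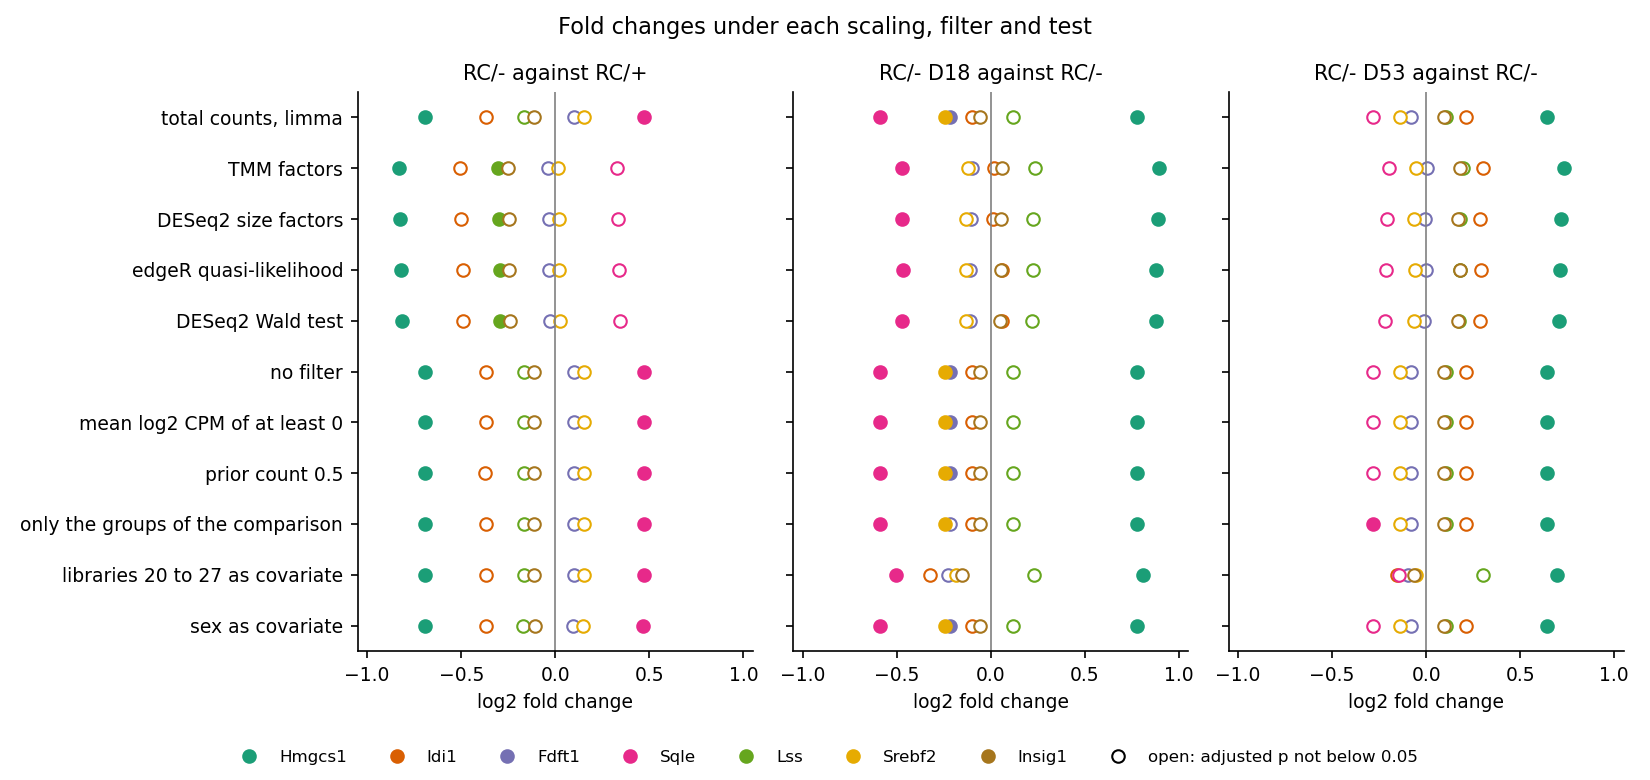
Log2 fold change (horizontal axes) of the 7 genes in RC/- against RC/+, RC/- D18 against RC/- and RC/- D53 against RC/- under each scaling, filter, covariate and test (vertical axis); filled circles have an adjusted p below 0.05. Hmgcs1 was called in every row of each of the 3 panels, whereas the calls of Sqle and Lss in RC/- against RC/+, and of Fdft1 and Srebf2 in RC/- D18 against RC/-, changed with the scaling.

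Together with 17 other enzymes from fixed lists, the 5 enzymes form a route of 22 enzymes from acetyl-CoA to cholesterol, of which 2 were higher and 7 lower in RC/- than in RC/+, and the same counts held without replicate 16, but 0 were higher and 8 lower with TMM factors. Of all genes, 25.5% were higher and 12.2% lower in that comparison. In RC/- D18 against RC/-, 6 were higher and 6 lower (5 and 7 without replicate 16, 7 and 4 with TMM factors), beside 14.3% and 26.9% of all genes. Fdps was among the lower enzymes but averaged only 0.998 CPM over the 24 libraries. Its change (-1.13, CI -1.76 to -0.50, adjusted p = 0.00437, limma) therefore rests on few counts. In RC/- D53 against RC/- 6 were higher and 0 lower (5 and 1 without it, 7 and 0 with TMM factors), beside 11.3% and 18.9% of all genes. The median log2 fold changes of the 22 were -0.03, -0.03 and 0.07.

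Among the 7 further mevalonate genes, 1 was higher and 2 were lower in RC/-, also without replicate 16. Acat2, whose product condenses acetyl-CoA just ahead of Hmgcs1, averaged 45.15 CPM in RC/- and 68 CPM in RC/+ (log2 fold change -0.59, adjusted p = 3.26e-06). Mvd, the mevalonate diphosphate decarboxylase, was lower too (-0.39, adjusted p = 0.0128).

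Among the 10 further sterol genes, 4 were lower and 0 higher in RC/-, also with TMM factors and without replicate 16, and the median of the list was -0.07. Ebp, the sterol isomerase, fell most (-0.68, adjusted p = 5.13e-07), from a mean of 76.9 CPM in RC/+ to 48.15 CPM in RC/-, and was 79.1 CPM in RC/- D18. In RC/- D18 against RC/- 3 of the 10 were higher and 1 lower (3 and 2 without replicate 16), and in RC/- D53 against RC/- 3 were higher and 0 lower (2 and 0 without replicate 16).

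**Figure D4:**
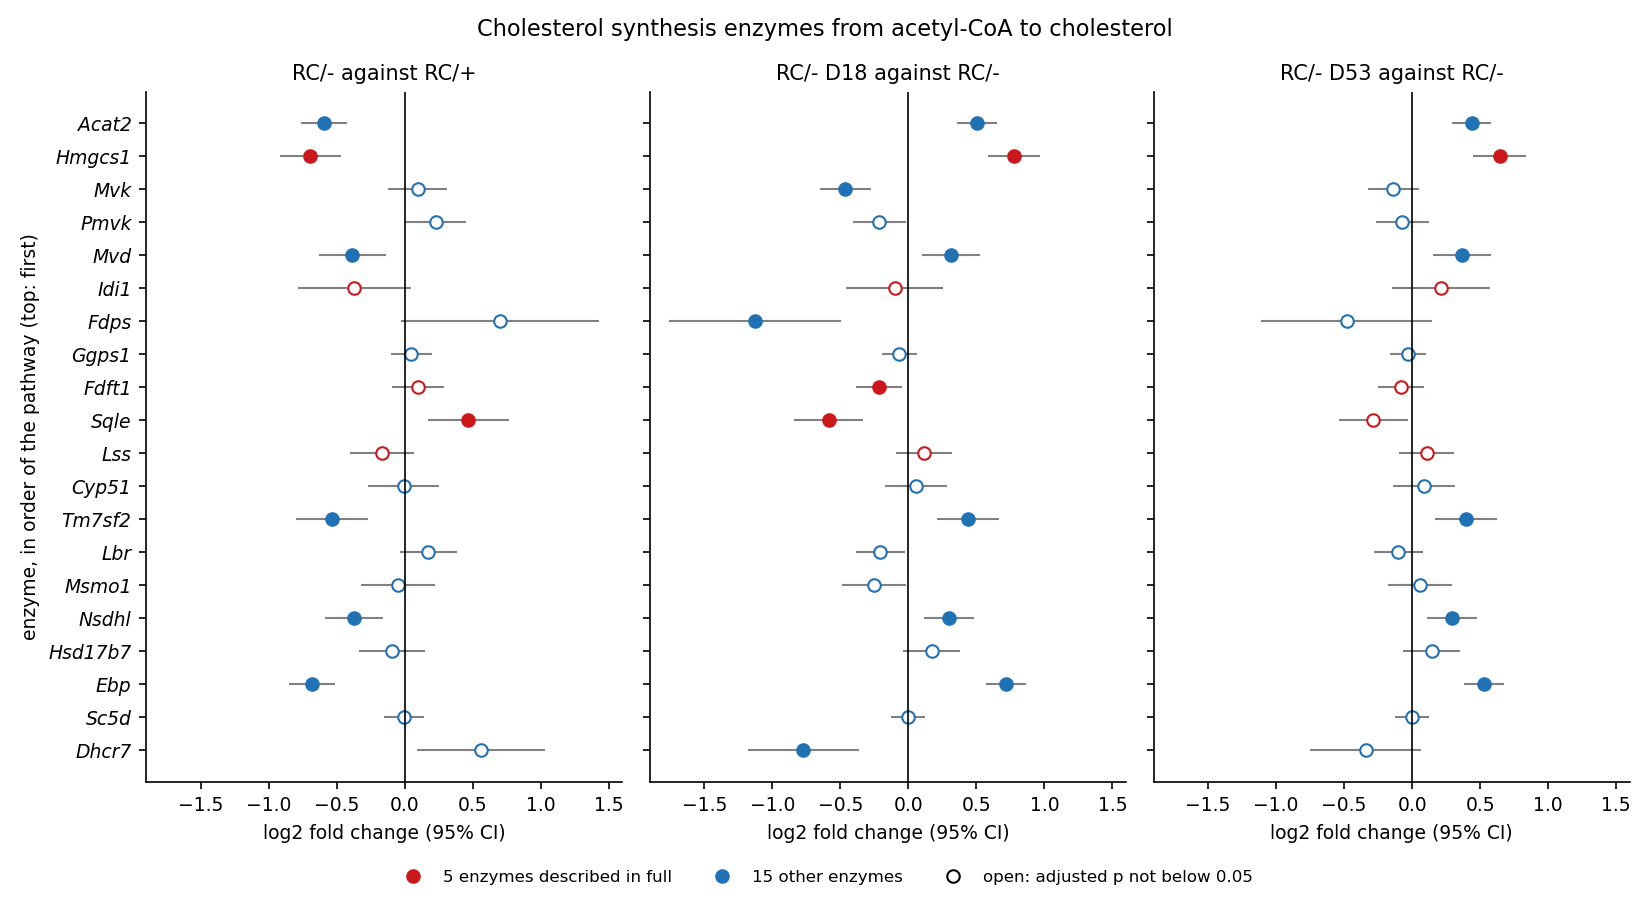
Log2 fold change with 95% confidence interval (horizontal axes) of 20 of the 22 enzymes of cholesterol synthesis, listed from the first step at the top to the last at the bottom (Ggps1 is on a side branch), in RC/- against RC/+, RC/- D18 against RC/- and RC/- D53 against RC/-; red marks Hmgcs1, Idi1, Fdft1, Sqle and Lss, and filled circles have an adjusted p below 0.05. Acat2, Hmgcs1, Mvd, Tm7sf2, Nsdhl and Ebp lay below 0 in RC/- and above 0 in both edited comparisons, and were called in each. Sqle lay on the other side, short of the threshold in RC/- D53 against RC/-.

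The 7 regulators other than Srebf2 and Insig1 gave 1 higher and 3 lower in RC/- against RC/+, and 0 higher and 2 lower without replicate 16. Scap, the escort of SREBP-2, was higher by 0.18 (adjusted p = 0.0497, and 0.0594 without replicate 16), and by 0.04 with TMM factors (adjusted p = 0.772). Of 13 genes of uptake and intracellular transport, 2 were higher and 3 lower, and 3 and 2 without replicate 16. Lrp1, a scavenging lipoprotein receptor, rose from a mean of 91.1 CPM in RC/+ to 154 CPM in RC/- (0.75, adjusted p = 2.4e-05), and Npc1, which exports cholesterol from lysosomes, rose too (0.43, adjusted p = 0.000123). Lipa, the lysosomal lipase that frees cholesterol from its esters, and Stard4, a sterol carrier, were lower (-0.39, adjusted p = 0.0244, and -0.32, adjusted p = 0.0156).

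Of 10 genes of efflux, esterification and oxysterol sensing, 4 were higher and 2 lower in RC/-, and 5 and 2 without replicate 16. Ch25h, the cholesterol 25-hydroxylase, rose by 1.37 (adjusted p = 8.61e-05) from a mean of 1.39 CPM, and Soat1, which esterifies cholesterol, by 0.77 (adjusted p = 2.28e-06). Nr1h3, the LXR-alpha receptor, and Apoe, the lipoprotein component, fell by 0.46 and 0.40 on the log2 scale (adjusted p = 0.0121 and 0.00165). Of 8 genes of fatty acid synthesis, 3 were higher and 1 lower, also without replicate 16. Scd2, a desaturase, rose by 1.07 (adjusted p = 6.39e-09) and Fasn, the fatty acid synthase, by 0.52 (adjusted p = 0.000159), and Me1, which supplies NADPH, was at -0.63 (adjusted p = 0.0195). Over all 6 lists, 11 of 55 genes were higher and 15 lower in RC/- against RC/+ (12 and 13 without replicate 16, 8 and 15 with TMM factors), beside 25.5% and 12.2% of all genes, with a median of 0.06 beside 0.14 for all genes. In RC/- D18 against RC/- 13 were higher and 16 lower (12 and 16 without replicate 16, 15 and 12 with TMM factors), beside 14.3% and 26.9% of all genes. In RC/- D53 against RC/- 10 were higher and 9 lower (9 and 9 without replicate 16, 13 and 6 with TMM factors), beside 11.3% and 18.9% of all genes. These shares of all genes are on total counts with all 24 libraries. With TMM factors 7740, 8843 and 6344 of all genes were called in the 3 comparisons, in that order. Of those calls, 49.7%, 50.2% and 53.2% were higher.

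Within groups, Sqle followed the other genes most closely and Hmgcs1 least. Each gene's deviations from its group means of log2 CPM were correlated over the 24 libraries with the mean scaled deviation of the other 6, a description over libraries that share groups, depth and scaling. Pearson's r was 0.895 for Sqle, 0.694 for Lss, 0.594 for Insig1, 0.582 for Idi1, 0.577 for Fdft1, 0.444 for Srebf2 and 0.271 for Hmgcs1. Without replicate 16 Sqle stayed at 0.895 and the others were lower. Lss was then at 0.594, Insig1 at 0.519, Idi1 at 0.511, Fdft1 at 0.389, Srebf2 at 0.259 and Hmgcs1 at 0.108. Among 15108 other genes whose log2 CPM averaged 0 or more, those most like the mean of the 7 included Mvd (r = 0.826, Spearman's rho 0.699), Cyp51, the lanosterol demethylase (r = 0.78), Cckar (r = 0.76) and Calb1 (r = 0.751). Without replicate 16 they included Msmo1, a sterol oxidase (0.791), Cyp51 (0.746), Oxnad1 (0.745) and Gcnt2 (0.723).

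The make-up of the tissue moved with the same comparisons, and in whole kidneys fewer cells of a type and less RNA per cell cannot be told apart. All 6 proximal tubule markers were lower in RC/- than in RC/+ and higher in both edited RC/- groups than in RC/-. They summed to 5377 to 5905 CPM in RC/+, 1122 to 2918 CPM in RC/-, 5108 to 7007 CPM in RC/- D18 and 3890 to 5053 CPM in RC/- D53. All 3 markers of the thick ascending limb and distal tubule and both podocyte markers moved the same way. All 6 macrophage markers were higher in RC/- and lower in both edited groups, with sums of 190 to 206 CPM in RC/+, 364 to 621 CPM in RC/-, 238 to 262 CPM in RC/- D18 and 259 to 346 CPM in RC/- D53. Of 4 collecting duct markers, 3 were higher in RC/-, with sums of 766 to 1012 CPM in RC/+ and 1711 to 3590 CPM in RC/-. Without replicate 16 these counts of called markers held in RC/- against RC/+ and in RC/- D18 against RC/-. In RC/- D53 against RC/-, 5 of the 6 macrophage markers were then lower. There 2 of the 3 thick ascending limb and distal tubule markers were higher, and the proximal tubule and podocyte counts held. Replicate 16 had the lowest proximal tubule sum of all libraries, 1122 CPM, and the highest macrophage sum, 621 CPM. The 6 adipose markers varied widely within every group, from 3.98 to 476 CPM over all libraries (441 CPM in replicate 16), and the 5 liver markers from 87.5 to 341 CPM. The part of these shifts in the values of the 7 genes was not tested.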

How the data were processed

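Total RNA of whole kidneys from 24 mice was sequenced, and the authors deposited raw counts per Ensembl gene (GRCm38, release 94) after trimming with Trim Galore (0.6.3) and alignment and counting with STAR (2.5.3a); which strand was counted is not given in the sources used here. Counts were neither normalised nor pooled. Groups and replicate numbers come from the sample labels, and p values measure the spread between these mice. CPM were taken on total counts, and their logarithms were formed with 2 as prior count. The 22570 of 54532 genes whose average log2 CPM reached -3 were tested in 1 fit of all 24 libraries with limma-trend (limma 3.58.1, edgeR 4.0.16, R 4.3.3), two-sided, with Benjamini-Hochberg adjustment over all genes tested and a threshold of 0.05. The same fit was run without RC/- replicate 16, which left 22551 genes. The scripts were tested on simulated data. Alternatives were TMM and DESeq2 size factors, edgeR's quasi-likelihood test, DESeq2 (1.42.0), other filters and prior counts, sex or libraries 20 to 27 as a covariate, fits on the compared groups alone, and each library left out. Sex was not taken from the labels but inferred, as female where Xist exceeded Ddx3y in CPM (14 female and 10 male libraries). In each pathway list, the 2 largest increases and 2 largest decreases among calls in RC/- against RC/+ are named, save some genes that are not reported here, although the counts of the lists include them. The 7 genes, the lists and the tests were chosen with earlier results of these data known. No pair of libraries agreed within sampling noise (lowest chi-square per degree of freedom 8.45 over 39 within-group pairs). Promoter sequences are from RefSeq (GRCm38.p6).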

Additional observations from a re-analysis of the deposited data

Results flagged for a closer look

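The following 3 differences between lines were picked out by a direct test of the difference in limma. The RC/- against RC/+ difference of Hmgcs1 was higher by 0.743 on the log2 scale in the D18 line than in the unedited line (adjusted p = 0.00146), and by 0.525 in the D53 line (adjusted p = 0.0266). That of Sqle was -0.869 in the D18 line relative to the unedited line (adjusted p = 0.00405). All 3 use the RC/+ and RC/- libraries of the unedited line, so they are not independent. No library stood apart from its group by Dixon's criterion in any of the 21 sets of 5 libraries tested for the 7 genes, and chance alone picks out about 1 in 20.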

How the results depend on the processing

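No paired analysis was possible because the replicate numbers are not shared between groups. Hmgcs1 kept its direction and call in RC/- against RC/+, RC/- D18 against RC/- and RC/- D53 against RC/- under every alternative run (highest adjusted p 0.00175, 9.45e-05 and 0.0111). The covariate for libraries 20 to 27 was estimated from RC/- D18 alone, the only group with libraries inside and outside that block. All RC/- D53 and no RC/- libraries lie in the block, so for RC/- D53 against RC/- that setting is no independent check. Genes called in RC/- against RC/+ numbered 1 to 2 with 1 library left out, 1 without RC/+ replicate 4 or 5. In RC/- D18 against RC/- 2 were called, in place of 4, under TMM or DESeq2 scaling, in edgeR, in DESeq2 or with libraries 20 to 27 as a covariate, and 2 to 4 with 1 library left out (2 without RC/- replicate 15 or RC/- D18 replicate 22). Without RC/- replicate 16 it was also 2 under either scaling, in edgeR and in DESeq2. With TMM factors and all 24 libraries, 8843 of the 22570 genes tested were called in that comparison. In RC/- D53 against RC/- 2 were called in a fit on its own groups, and 1 to 2 with 1 library left out (2 without RC/- replicate 16). Without that replicate 1 was called under either scaling, in edgeR, in DESeq2 and with the covariate. For the cystic difference in D53 relative to the unedited line, 0 were called with the covariate and 0 to 2 with 1 library left out, 0 without RC/+ replicate 5 or 6 or RC/+ D53 replicate 10. Signs changed for uncalled values alone. Fdft1 in RC/- against RC/+ was -0.0412 with TMM factors, -0.0361 with DESeq2 size factors, -0.0335 in edgeR and -0.0299 in DESeq2. In RC/- D18 against RC/- the same 4 settings gave 0.0155, 0.0102, 0.0608 and 0.058 for Idi1, and 0.0588, 0.0535, 0.0536 and 0.0507 for Insig1, which ran from -0.283 to 0.0417 and from -0.135 to 0.0191 with 1 library left out. In RC/- D53 against RC/- the covariate gave -0.156 for Idi1 and -0.0647 for Insig1, and TMM factors 0.00685 for Fdft1. The cause was not tested. Of 652 values under alternatives for results printed here, 596 kept direction and side of the threshold, 30 lost a call, 9 gained one and 17 changed sign. Of 769 such values for other results, 701 kept both and 68 changed sign. Groups of 3 mice and the 134 counts of the lowest gene and library limit precision for the genes of low level.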
